A study of Mus musculus with 4 samples.

Results

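The teneurin and latrophilin genes were described in esophageal tumours of wild-type mice and of mice whose genotype is given as S100A14 CKO. The members were the rows of the deposited gene table whose symbol is Tenm1, Tenm2, Tenm3, Tenm4, Adgrl1, Adgrl2, Adgrl3 or Adgrl4. Of these 8 genes, 7 were listed among 14157 genes in all. Tenm1 was not listed and is not analysed here. The family was put forward with the difference between the genotypes in view (Tenm3 stands at place 8 in the order of the authors' deposited table), so the members' differences between genotypes are given as a description, with no test.

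Total RNA had been extracted from 4 tumours of C57BL/6 mice, all induced with the carcinogen 4NQO (4-nitroquinoline 1-oxide), a quinoline that damages DNA and is widely used to model squamous cancer of the mouth and gullet in mice. The wild-type group (WT) held replicates 3 and 6, written WT3 and WT6, and the S100A14 CKO group (KO) held replicates 1 and 8, written KO1 and KO8, with n = 2 in each. The labels give neither the promoter that drives the deletion, nor the animals' age, nor whether each library is a separate animal, so any p-value measures only the spread between these samples. The targeted gene, S100a14, was read 463 times in WT3, 347 times in WT6, 0 times in KO1 and 1 time in KO8.

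Teneurins are very large type II transmembrane proteins whose extracellular part folds into a barrel of YD repeats. Latrophilins are adhesion G protein-coupled receptors (GPCRs) that bind teneurins, and also FLRT proteins, across the gap between cells. The pair is best known from synapses, where it takes part in matching of nerve cells and in synapse formation. Adgrl4, also called Eltd1, is grouped with the latrophilins by name and by its transmembrane part but is known as a receptor of endothelial cells, and it lacks the lectin-like domain through which latrophilins bind teneurins.

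The values below are scaled read signal, that is, reads per gene divided by a factor for each library. One read was worth 0.193, 0.318, 0.220 and 0.258 in WT3 and WT6 and KO1 and KO8. The table held between 11132019 and 16182109 reads per library, of which genes typed as ribosomal RNA took 47.0% to 76.4%. KO8 stood apart from the others. Its log2 values over 12304 genes had correlations of 0.769 to 0.816 with those of the remaining libraries, which correlated among themselves at 0.908 to 0.915. Keratinocyte genes defined the tissue in every library: the 7 squamous keratinocyte markers, led by Krt14 and Krt5, summed to 25288 and 35754 in WT, to 23841 in KO1 and to 5773 in KO8.

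Tenm3 (ENSMUSG00000031561, chromosome 8), a teneurin known from mouse visual and hippocampal wiring, stood out from its family. It had a scaled value of 54.2 in WT3, 14.3 in WT6, 0.440 in KO1 and 0.773 in KO8. These values came from 281, 45, 2 and 3 reads. Tenm3 was thus well measured in both WT libraries and at or below the level of 3 reads in both KO libraries, and the groups did not overlap. The lower WT value was 18.5 times the higher KO value, while the WT libraries differed from each other by a factor of 3.79. The group means were 34.3 ± 28.2 for WT and 0.606 ± 0.235 for KO (SD, n = 2 each). On the log2(value + 1) scale, which understates changes of low genes, the difference KO minus WT was −4.19 (SE 0.68), the 11th lowest of 12304 genes.

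Pooled over the libraries of a group, the Tenm3 read rate in KO was 1.52% of that in WT, from 5 reads against 326. The exact 95% binomial interval of that percentage was 0.489% to 3.57%, which covers counting error only and not the spread between tumours. In bulk tissue, fewer cells that express a gene and less of its RNA per cell cannot be told apart. The 7 keratinocyte markers all had a lower mean log2 value in KO, with a median difference from the WT mean of −0.37 in KO1 and −2.26 in KO8. They varied widely, from 0.42 (Dsp) to −2.74 (Krt4) in KO1 and from −0.36 (Trp63) to −6.30 (Krt4) in KO8. The KO minus WT difference of Krt4 was −4.52 on this scale, against −4.19 for Tenm3. The scale shrinks the fall of Tenm3, whose KO values are below 1, more than that of Krt4. Without logs, the WT and KO means were 3289 and 209 for Krt4 and 34.3 and 0.606 for Tenm3. The log2 difference of Tenm3 from the WT mean was −4.34 in KO1 and −4.04 in KO8. The part of keratinocyte content in the Tenm3 values was not tested.

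The promoter of Tenm3 is printed because this gene carries the main difference, and those of Tenm2 and Tenm4 because they are the other listed teneurins. RefSeq start sites were found for 8 of the 8 named genes. Each window runs from 250 bases before the start to 50 bases after it, 5′ to 3′ on the gene's strand (GRCm38.p6). Capitals mark matches, on either strand, to the CRE (TGACGTCA), the AP-1 motif (TGANTCA), the NRF2 antioxidant response element (TGACNNNGC), the TATA box (TATAAA), the CCAAT box (CCAAT) or the GC box (GGGCGG).
Tenm3, chr8:48674641-48674940, minus strand: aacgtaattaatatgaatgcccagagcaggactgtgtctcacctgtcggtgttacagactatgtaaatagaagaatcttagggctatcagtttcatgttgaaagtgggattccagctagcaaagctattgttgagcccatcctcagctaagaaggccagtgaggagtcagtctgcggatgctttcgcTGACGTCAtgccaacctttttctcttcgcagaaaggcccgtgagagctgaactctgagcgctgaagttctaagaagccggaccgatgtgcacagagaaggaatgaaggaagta
Tenm2, chr11:36944192-36944491, minus strand: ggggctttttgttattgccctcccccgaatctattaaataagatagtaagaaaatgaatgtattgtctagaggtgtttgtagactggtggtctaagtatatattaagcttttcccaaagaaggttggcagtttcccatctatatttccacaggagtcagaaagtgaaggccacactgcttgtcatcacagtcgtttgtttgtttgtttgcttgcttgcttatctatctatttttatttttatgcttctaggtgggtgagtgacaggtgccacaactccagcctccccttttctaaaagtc
Tenm4 start 1, chr7:96170994-96171293, plus strand: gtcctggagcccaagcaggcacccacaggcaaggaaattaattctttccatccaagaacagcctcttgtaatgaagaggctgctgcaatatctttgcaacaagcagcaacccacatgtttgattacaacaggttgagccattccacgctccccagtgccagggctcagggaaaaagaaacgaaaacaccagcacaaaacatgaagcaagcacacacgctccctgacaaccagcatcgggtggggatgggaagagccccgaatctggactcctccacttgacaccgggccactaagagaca
Tenm4 start 2, chr7:96211421-96211720, plus strand: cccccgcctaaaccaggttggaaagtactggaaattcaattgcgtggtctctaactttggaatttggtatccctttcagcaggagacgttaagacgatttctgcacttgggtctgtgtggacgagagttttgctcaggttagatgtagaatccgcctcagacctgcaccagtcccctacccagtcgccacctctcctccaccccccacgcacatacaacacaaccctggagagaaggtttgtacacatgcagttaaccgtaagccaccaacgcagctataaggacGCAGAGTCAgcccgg

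The Tenm3 window held a single match, a whole CRE, the palindrome bound by factors of the CREB and ATF family, that begins at position −63 from the start. Of 32544 RefSeq promoter windows of the same length, 1.80% held that motif. The Tenm2 window and the first Tenm4 window held no match to any of the 6 motifs. The second Tenm4 window held an NRF2 element, found in 12.4% of windows, at position 36 after the start. The other motifs were present in 7.79% (AP-1), 13.6% (TATA), 37.4% (CCAAT) and 35.9% (GC box) of windows. No match overlapped another. The Tenm3 and Tenm2 starts, and the second Tenm4 start, lie inside the gene as RefSeq annotates it, and the counts per gene do not show which start the tumours used.

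**Figure D1:**
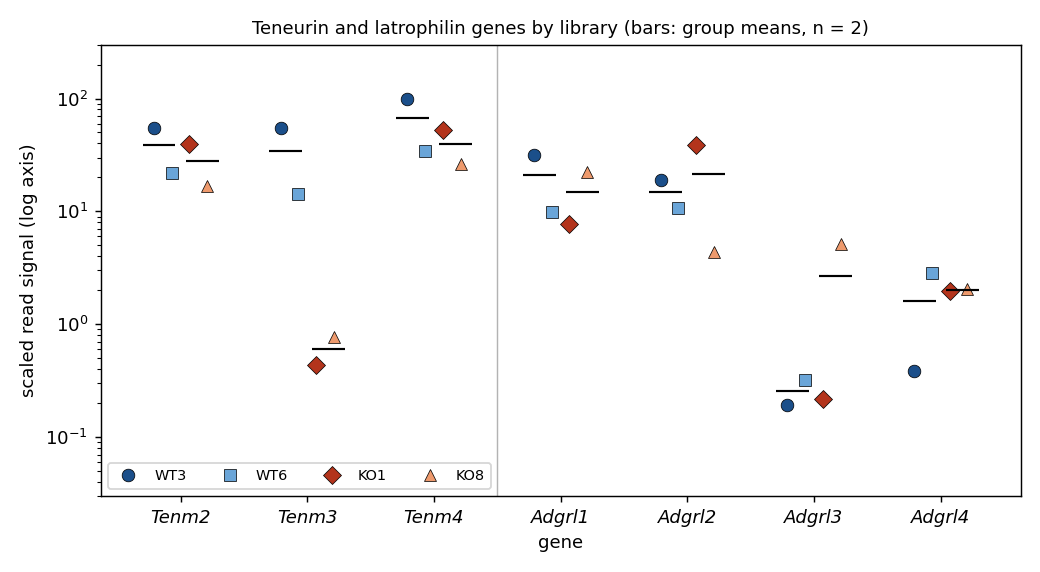
Scaled read signal (log axis) of the 7 listed genes in each library, with bars at the mean of each group (n = 2). Tenm3 is at 54.2 and 14.3 in WT and at 0.440 and 0.773 in KO, while the KO and WT libraries of the other 6 genes overlap.

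Tenm4 (ENSMUSG00000048078, chromosome 7), a teneurin that in mice is needed for gastrulation and for myelination, had the highest signal of the family before division by exon length. Its scaled value was 99.8 and 34.0 in WT3 and WT6, 52.3 in KO1 and 26.3 in KO8. The WT and KO libraries overlapped, since KO1 lay between the WT libraries. The means were 66.9 ± 46.5 for WT and 39.3 ± 18.4 for KO (SD, n = 2 each), with a difference of −0.64 (SE 0.62) on the log2 scale. That difference was 0.12 without WT3, −0.16 without KO8, −1.12 without KO1 and −1.402 without WT6.

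Tenm2 (ENSMUSG00000049336, chromosome 11), the teneurin first paired with latrophilin 1 at synapses, had a scaled value of 55.2 and 21.9 in WT3 and WT6, 39.4 in KO1 and 16.7 in KO8. The order of the libraries was the same as for Tenm4, highest in WT3 and lowest in KO8, and the groups overlapped. The means were 38.6 ± 23.5 for WT and 28.1 ± 15.99 for KO (SD, n = 2 each), with a log2 difference of −0.42 (SE 0.62). Its sign turned without WT3 (0.22) and without KO8 (0.17), and it was −1.02 without KO1 and −1.07 without WT6.

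Ratios within a library do not depend on how libraries were scaled. The ratio of the Tenm2 to the Tenm4 value was 0.553 and 0.645 in WT3 and WT6 and 0.752 and 0.637 in KO1 and KO8. This ratio overlapped between the groups. The ratio of the Tenm3 to the Tenm4 value was 0.544 and 0.421 in WT and 0.00841 and 0.0294 in KO.

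As a share of the teneurin reads of a library, Tenm3 took 25.9% in WT3 (Wilson 95% interval 23.4% to 28.6%) and 20.4% in WT6 (15.6% to 26.2%). In KO1 it took 0.477% (0.131% to 1.72%) and in KO8 1.76% (0.602% to 5.06%). These intervals cover counting error only and not the spread between tumours, so no test between the genotypes is drawn from them. Tenm4 took 47.7% and 48.4% of teneurin reads in WT and 56.8% and 60.0% in KO, and Tenm2 26.4% and 31.2% in WT and 42.7% and 38.2% in KO. The summed value of Tenm2 and Tenm4 overlapped between the groups, with 155 and 55.9 in WT against 91.7 and 43.0 in KO.

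**Figure D2:**
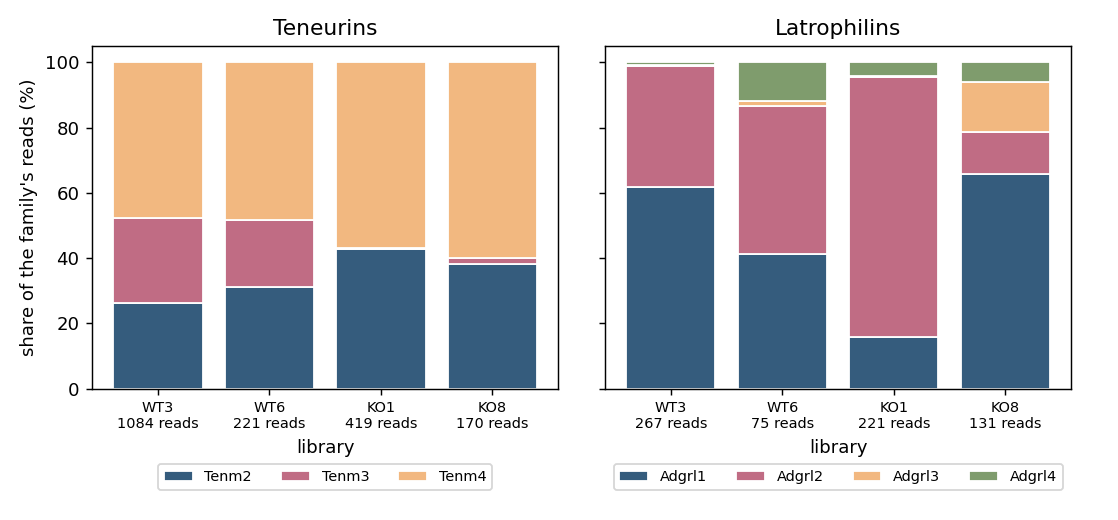
Share (%) of the reads of each family taken by each member, per library, with the family's reads under each bar. The Tenm3 share is 25.9% and 20.4% in WT and 0.477% and 1.76% in KO, and the latrophilin make-up differs most between the KO libraries.

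The latrophilins, the receptors, showed no common direction, and both values above and below 0 were found among their log2 differences. Adgrl1 (ENSMUSG00000013033, chromosome 8), the α-latrotoxin receptor of the mammalian brain, had a scaled value of 31.8 and 9.85 in WT3 and WT6, 7.70 in KO1 and 22.2 in KO8. The WT libraries spanned the value of KO8. Its means were 20.8 ± 15.6 for WT and 14.9 ± 10.2 for KO (SD, n = 2 each), with a log2 difference of −0.41 (SE 0.71), which became 0.39 without WT3, 0.30 without KO1, −1.12 without KO8 and −1.21 without WT6.

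Adgrl2 (ENSMUSG00000028184, chromosome 3), the most widely expressed latrophilin outside the nervous system, had a scaled value of 19.1 and 10.8 in WT3 and WT6, 38.7 in KO1 and 4.38 in KO8. Both WT values lay between the KO values, which differed by a factor of 8.83. The means were 15.0 ± 5.87 for WT and 21.5 ± 24.3 for KO (SD, n = 2 each). The log2 difference of −0.08 (SE 0.90) was −1.52 without KO1, 1.37 without KO8, 0.31 without WT3 and −0.46 without WT6, so no direction can be read from it.

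Within a library, the ratio of Adgrl2 to Adgrl1 was 0.600 and 1.10 in WT3 and WT6, 5.03 in KO1 and 0.198 in KO8. The KO tumours thus stood at opposite ends of this ratio, with the WT tumours between them. Adgrl2 took 79.6% of latrophilin reads in KO1 (Wilson 95% interval 73.8% to 84.4%) and 12.98% in KO8 (8.26% to 19.8%). Adgrl1 took 15.8% in the former and 65.6% in the latter. Summed over the 4 latrophilins, the scaled value was 51.5 and 23.8 in WT and 48.6 and 33.8 in KO, so the family as a whole overlapped between genotypes.

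Adgrl3 (ENSMUSG00000037605, chromosome 5), a latrophilin whose human gene has been studied in attention deficit disorder, was near the limit of detection in 3 of the 4 libraries. It had 1 read in WT3, WT6 and KO1 and 20 reads in KO8, with scaled values of 0.193, 0.318, 0.220 and 5.15. It did not pass the filter on low values (at least 1 in at least 2 libraries) and was not fitted. Its signal came from 1 tumour, so the KO mean of 2.69 ± 3.49 (SD, n = 2) describes that library and not the genotype. The same library had the highest sums for skeletal muscle (7 of 8 markers listed; 375 against 5.40 to 25.4 in the others), for fibroblasts (7 of 7; 855 against 100.3 to 242) and for smooth muscle (6 of 6; 173 against 19.5 to 136). Ttn and Acta1 led the first of these lists, Col1a1 and Col3a1 the second, and Acta2 and Des the third. The smooth muscle sum of KO8 rested on Des, with 114 in KO8 and 5.06 in KO1. Acta2 went the other way, with 28.6 in KO8 and 107 in KO1. The part of these cell types in the Adgrl3 signal was not tested.

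Adgrl4 (ENSMUSG00000039167, chromosome 3), the endothelial receptor, was scarce, with 2, 9, 9 and 8 reads and scaled values of 0.386, 2.86, 1.98 and 2.06 in WT3 and WT6 and KO1 and KO8. The WT libraries enclosed both KO libraries. Its log2 difference of 0.38 (SE 0.65) was −0.35 without WT3 and 1.12 without WT6. The endothelial markers were all listed (13 of 13, led by Flt1 and Erg) and summed to 63.3 and 74.7 in WT and 38.5 and 44.8 in KO. Of the 11 tested, 9 had a lower mean log2 value in KO, as had 6454 of all 12304 tested genes. With so few reads and a sign that turned without WT3, no direction can be read for Adgrl4. The part of endothelial content in its values was not tested.

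Markers of nerve tissue, where the family is best known, were scarce. Of 8 neuronal markers 2 were listed, Uchl1 and Stmn2, with sums of 0.953 to 1.74 in WT and 1.10 to 3.09 in KO, and none passed the filter. Of 8 Schwann cell markers 4 were listed, led by Erbb3 and Mbp, and the defining gene Sox10 was not among them. The Schwann list summed to 23.5 and 41.1 in WT and 14.4 and 34.1 in KO. The groups overlapped in both sums.

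Divided by exon length, which allows levels to be compared between genes, the order over the 4 libraries was Tenm2, Tenm4, Adgrl1, Tenm3, Adgrl2, Adgrl4 and Adgrl3. The mean scaled value per kilobase of exon was 2.90 ± 1.53 for Tenm2, 2.53 ± 1.57 for Tenm4, 2.08 ± 1.31 for Adgrl1, 1.70 ± 2.48 for Tenm3 and 1.29 ± 1.05 for Adgrl2 (SD, n = 4). Neighbours among these 5 genes differed by less than their spread. Adgrl4 had 0.397 ± 0.226 and Adgrl3 0.0829 ± 0.138 per kilobase (SD, n = 4). In WT3 Tenm3 was the first of the family, with 5.30 per kilobase against 4.81 for Tenm2 and 4.75 for Tenm4. In WT6 it was below both, with 1.397 per kilobase against 1.91 for Tenm2 and 1.62 for Tenm4. In the KO libraries it had 0.0430 and 0.0755, below every other listed member except Adgrl3 in KO1. Exon lengths came from GENCODE M21, ran from 4.58 kb (Adgrl4) to 21.0 kb (Tenm4), and were taken over all annotated isoforms, so a gene with unused exons appears lower than it is.

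Against all genes, 6 of the 7 listed members passed the filter and were in the limma fit of 12304 genes. In that fit 0 of the 6 passed an adjusted p of 0.05, where 0.00813% of all genes passed as lower and 0% as higher in KO, from which nothing is read. The sole gene that passed was S100a14, which fell by 6.48 on the log2 scale (SE 0.46, limma adjusted p = 0.0211). The S100a14 difference was −6.63 with WT3 left out and −6.33 with WT6 left out, so its size did not depend on either WT library. It did not pass in those fits, which have a lone WT library. Both KO libraries lay below both WT libraries for 1 of the 6 tested members, Tenm3, and for 19.3% of all tested genes. They lay above both WT libraries for 0 of the 6, against 14.5% of all tested genes. The median log2 difference was −0.42 over the 6 tested members and −0.03 over all tested genes, and the former was 0.01 without KO8, 0.17 without WT3, −1.07 without KO1 and −1.14 without WT6. The members are long genes. Over the 5919 tested genes with exons at least as long as those of Adgrl4, the shortest tested member, the median was 0.05.

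**Figure D3:**
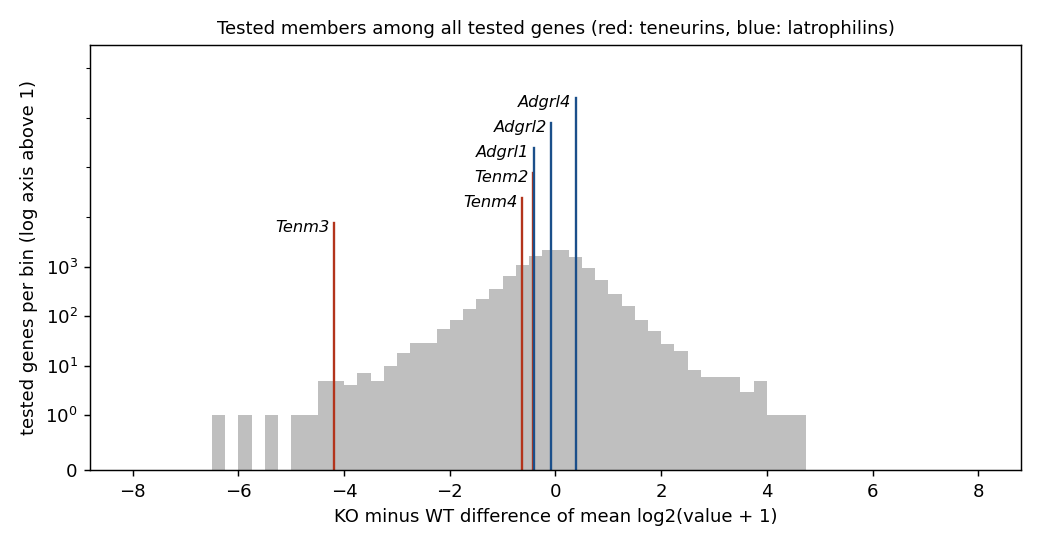
Number of tested genes (log axis above 1) by the difference KO minus WT of mean log2(value + 1), in bins of 0.25, with vertical lines at the 6 tested members. Tenm3 lies at −4.19 in the lower tail, and the other 5 lie between −0.64 and 0.38 in the body of the distribution.

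Several members varied more within a genotype than most genes did. From WT3 to WT6 the log2 value of Tenm2, Tenm3, Tenm4 and Adgrl1 changed by −1.29, −1.85, −1.53 and −1.60. The median over all tested genes for the same pair was −0.08, and 5% of genes were below −1.36, a point that Tenm3, Tenm4 and Adgrl1 passed. Adgrl2 changed by −0.77. Adgrl4 went the other way, by 1.48 on 2 and 9 reads, where the highest 5% of genes were above 1.17. From KO1 to KO8 the log2 value of Adgrl2 changed by −2.88 and that of Adgrl1 by 1.41, where the lowest 5% of genes were below −1.85 and the highest 5% above 1.61.

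Known partners of the family and the other adhesion GPCRs were read from 3 lists with 45 genes, of which 29 were listed and 24 tested. None passed in limma (0 higher and 0 lower at an adjusted p of 0.05). At an unadjusted p under 0.05 there were 5 of the 24 (Flrt3 and Adgre1 higher, Shank3, Adgrg1 and Adgrf4 lower), against 5.25% of all tested genes. Of these 5, 3 were other adhesion GPCRs and not partners. The lists were chosen with earlier results of these data known, so no excess is read from this count. The first list held the other ligands of latrophilins and the UNC5 receptors that bind FLRT proteins, with 6 of 11 listed and 4 tested. Its median log2 difference was −0.03, with 2 above and 2 below 0. The second list held intracellular and matrix partners (8 genes, 7 tested), with a median of 0.13, and the third the other adhesion GPCRs (26 genes, 13 tested), with a median of 0.08.

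Flrt3, a membrane ligand of latrophilins, was higher in both KO libraries, with 3.28 and 7.31 in WT3 and WT6 and 11.9 and 18.6 in KO1 and KO8. The groups did not overlap, yet the log2 difference of 1.41 (SE 0.54) did not pass (limma adjusted p = 0.926). Flrt2, a second ligand, had WT values of 22.4 and 9.53 and KO values of 5.72 and 30.7. Its value was high in WT3 and KO8 and low in the other libraries, as was that of Adgrl1. Flrt1, also a ligand, had scaled values of 0.193, 0.318, 0.220 and 5.41 and, like Adgrl3, was measured above 1 read in KO8 alone.

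Unc5b, a netrin receptor of vessels that also binds FLRT proteins, had WT values of 9.07 and 7.94 and KO values of 7.04 and 3.61, with a log2 difference of −0.64 (limma adjusted p = 0.954). Unc5a was close to the level of a few reads, with 1.16 and 0 in WT and 1.32 and 0 in KO. Dag1, which encodes dystroglycan, a matrix receptor that teneurin 1 can bind, had WT values of 19.7 and 16.5 and KO values of 22.2 and 25.3 (0.37, limma adjusted p = 0.987). Shank1 and Shank3 encode scaffold proteins that bind the cytoplasmic tail of latrophilins. Shank3 had WT values of 5.98 and 7.94 and KO values of 2.42 and 2.32 (−1.23, limma adjusted p = 0.926). Shank1 had WT values of 13.5 and 4.45 and KO values of 52.8 and 8.50, so its higher KO mean rested on KO1. Gna12, a G protein α subunit gene, had WT values of 5.98 and 8.90 and KO values of 6.60 and 21.6.

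Among the other adhesion GPCRs, Adgrg1, also called Gpr56, had WT values of 22.4 and 17.8 and KO values of 5.94 and 5.93. Both KO libraries lay below both WT libraries and were close to each other, but the log2 difference of −1.60 (SE 0.45) did not pass (limma adjusted p = 0.910). Adgrf4 had WT values of 5.98 and 3.81 and KO values of 0.880 and 0.773 (−1.67, limma adjusted p = 0.910). Adgre1, which encodes the macrophage antigen F4/80, had WT values of 0.965 and 0.318 and KO values of 2.42 and 4.64 (1.45, limma adjusted p = 0.926). The 7 macrophage markers, led by Lyz2 and C1qb, summed to 33.2 and 37.8 in WT and 84.9 and 157 in KO, and their part in the Adgre1 values was not tested. Adgra3 had WT values of 0.772 and 2.22 and KO values of 1.76 and 6.44, with overlap.

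**Figure D4:**
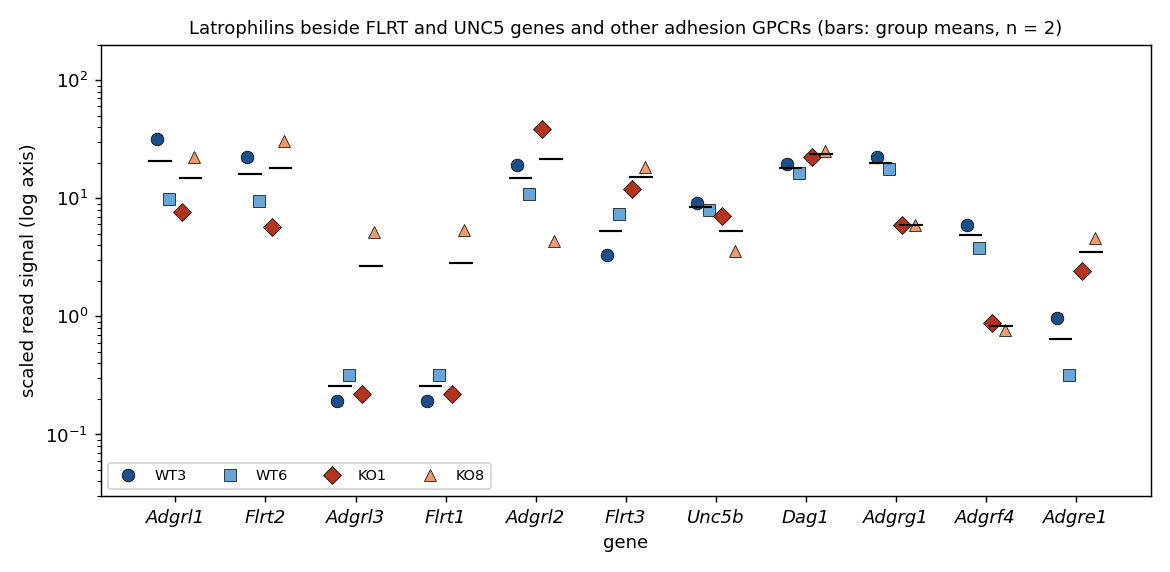
Scaled read signal (log axis) of 3 latrophilins beside the FLRT genes, Unc5b, Dag1 and 3 other adhesion GPCRs in each library, with bars at the group means (n = 2). Adgrl3 and Flrt1 are both above 5 in KO8 alone, and Adgrg1 is at 5.94 and 5.93 in KO against 22.4 and 17.8 in WT.

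The genes around Tenm3 on chromosome 8 did not share its pattern. Of the 5 protein-coding neighbours on each side in the RefSeq gene order, chosen after the Tenm3 values were seen, 7 were listed and 6 tested. The log2 differences of these 6 ran from −0.25 to 0.83, and 0 passed in limma. Dctd, the nearest gene on one side, had WT values of 4.44 and 5.72 and KO values of 7.48 and 2.06, and Aga, the nearest on the other, had WT values of 1.93 and 0.953 and KO values of 1.10 and 2.32. Both overlapped between the groups. Vegfc did not pass the filter on low values, being listed at 0 in both WT libraries and at 0.220 and 1.80 in KO. Adgrl1, a member on the same chromosome, overlapped too.

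**Figure D5:**
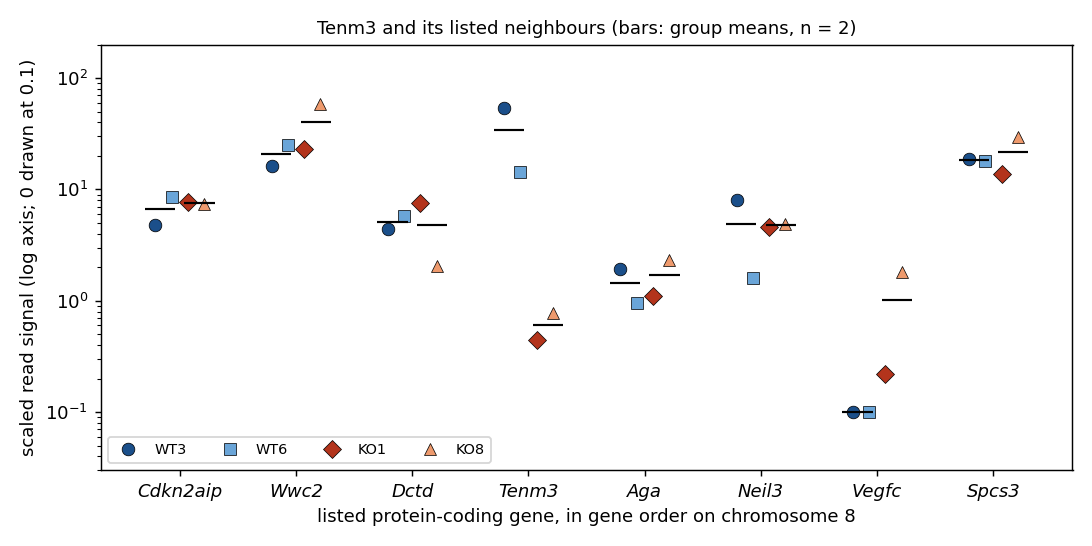
Scaled read signal (log axis, with 0 drawn at 0.1) of Tenm3 and its 7 listed protein-coding neighbours, in gene order on chromosome 8, with bars at the group means (n = 2). Tenm3 is low in both KO libraries, and the 6 tested neighbours overlap between the groups.

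The genes closest to a member in their course over the 4 libraries were found by the distance between log2 profiles after each gene's own mean was removed. For Tenm4 these were Xdh (distance 0.125), H2afx (0.150) and Kmt2a (0.183), out of 2405 genes of a similar level. For Tenm2 they were Gphn (0.0733), Tbc1d8 (0.193) and Rit1 (0.198), out of 3483, and for Adgrl2 Ifitm10 (0.309), Tmprss4 (0.317) and Ppfia3 (0.451), out of 4821. For Tenm3, added after its values were seen, the closest were Sgpp2 (1.26), Krt1 (1.52) and Atg9b (1.65), out of 4688. Sgpp2, a sphingosine phosphate phosphatase gene, had WT values of 15.2 and 4.77 and KO values of 0.220 and 0.258. The distances for Tenm3 were larger than those for the other 3 genes. Over 4 libraries such likeness is a description.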

How the data were processed

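Tumour RNA was isolated with Trizol and sequenced from TruSeq RNA libraries, per the labels' protocols. The authors deposited 1 table with a column of scaled read signal per library. All values of a column are whole multiples of its step, and division by the step gave whole reads for 100% of them (tolerance 0.001). The submitters' processing notes name DESeq and build mm9. No source used here gives the aligner, the counter, strandedness or how shared reads were treated. The deposited log2 fold changes and p-values come from a comparison by the authors whose test is unnamed. Only the order of that table was used.

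Genes reaching a value of 1 in 2 or more libraries were fitted on log2(value + 1) with limma 3.58.1 in R 4.3.3 (trended prior, genotype the only term). P-values were two-sided and Benjamini-Hochberg adjusted over 12304 genes, with a threshold of 0.05. Exact permutation of 2 against 2 libraries cannot go below p = 0.333 and was not used. The members, the partner and marker lists and the naming rule (all members, up to 4 genes per partner list by smallest p and some fixed partners, the leading markers, the closest profiles) were chosen with earlier results of these data known. Alternatives were other normalizations, filters and pseudocounts, each library left out, edgeR 4.0.16 and DESeq2 1.42.0 on the recovered reads. The pipeline was tested on simulated data. Sequences are from RefSeq, GRCm38.p6.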

Additional observations from a re-analysis of the deposited data

How the results depend on the processing

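Tenm3 was lower in KO in all 12 alternatives. As both KO values lay below both WT values, leaving out a library could not turn that sign, so the shared sign is no support. The log2 difference was −5.11 to −3.26 over the libraries left out and −5.76 to −4.15 otherwise. It was −5.35 with a pseudocount of 0.1, and −5.69, −5.72 and −5.76 in edgeR, edgeR without a filter and DESeq2, which add a smaller pseudocount or none. The count of genes called depended on the method. Of 14157 genes DESeq2 called 20 higher and 32 lower. Of the 10332 genes kept by edgeR's filter, its quasi-likelihood test called 0 and 0 (520 at an unadjusted p under 0.05). The DESeq2 calls held 1 listed member, from which nothing is read, as the family was put forward with this contrast in view. Limma called 0 lower with a pseudocount of 0.1 and 2 without a filter, and edgeR without a filter called 2. Over the libraries left out limma called 0 to 203 higher and 0 to 307 lower, the most without KO replicate 1, where the lone KO library is assumed to vary like the WT pair. S100a14 did not pass in 4 alternatives: without either WT library, with a pseudocount of 0.1 (adjusted p = 0.0541) and in edgeR with its filter (0.0826).

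The FLRT and UNC5 list had a median of −0.59 to 0.54 over the libraries left out, 0.28 in edgeR and 0.25 in DESeq2. The other adhesion GPCRs had −0.41 to 0.15, and −0.54 in edgeR, whose filter kept 8 of the 13. The member Adgrl2 changed sign from −0.08 to 0.56, 0.56 and 0.57 in edgeR, edgeR without a filter and DESeq2. Flrt2 changed sign to 0.28, 0.22 and 0.27 in edgeR, edgeR without a filter and DESeq2, and ran from −1.22 to 1.01 over the libraries left out. Gna12 ran from −0.13 to 1.45 and Unc5a from −0.55 to 0.66. The causes were not tested. No paired analysis was possible because the groups share no replicate number. With 2 tumours per group and 1052423 to 2107060 nuclear protein-coding reads per library, genes near a value of 1 rest on a few reads.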
